A study of Mus musculus with 12 samples.

Results

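The effect of losing Spdef was compared between stomach and colon. For each gene the knockout (KO) minus heterozygote (HET) difference in colon was subtracted from the same difference in stomach, so a positive value of this interaction marks a gene whose difference was more negative in colon. RNA of whole, flash-frozen tissue from untreated 16 week old C57BL/6 mice was read on Affymetrix mouse expression arrays, chips on which each transcript is captured by a set of short probes. HET stomach, KO stomach, HET colon and KO colon had 2 arrays each, which are 8 of the 12 arrays of the series, and the wild type arrays were not used. Every group therefore carried at least 1 altered Spdef allele, and the baseline is HET tissue rather than intact tissue. The labels used here give neither the sex of the mice, nor the structure of the altered allele, nor whether the 2 arrays of a group are different mice. All p-values therefore reflect the spread of these particular samples, which may be technical.

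Levels are given as log2(intensity + 16) after quantile normalization over the 8 arrays, and differences are on that scale, which understates the change of dim genes. A gene counted as expressed in a tissue when it reached a level of 6.53, the 40th percentile of all probe sets, in at least 2 of the 4 arrays of that tissue. Of 11807 genes on the array, 7152 were expressed in both tissues and were tested. A gene was called a loss in a tissue when KO minus HET was -1 or less and both KO arrays lay below both HET arrays. It was shared when this held in both tissues, and stomach-only or colon-only when the difference in the other tissue was above -0.5. By this rule there were 8 shared losses (0.112% of the genes tested), 8 stomach-only losses (0.112%) and 34 colon-only losses (0.475%). The mirror-image rule for gains gave 0 shared, 3 stomach-only (0.0419%) and 2 colon-only genes (0.028%). The losses nearest the limit in stomach were Ly6d (-1.01) and Thrsp (-1.03) inside it and Spink4 (-0.99) and Dnajb5 (-0.97) outside it, and in colon Scg3 (-1.04) and Rtn1 (-1.04) inside and Scg2 (-0.999) and Gng3 (-0.997) outside. Because the sorting uses the same values as the differences below, membership of a class is a description and not a test. In whole tissue, fewer cells of a type and less RNA per cell cannot be told apart.

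Spdef is an ETS family transcription factor that acts in the maturation of goblet cells in the intestine and of mucous gland cells in the stomach. Mucous cells fold and glycosylate large amounts of mucin in the endoplasmic reticulum (ER) and the Golgi apparatus. Creb3l4, which led the shared losses, belongs to a family of transcription factors anchored in the ER membrane that are cut free to enter the nucleus, and Cgref1 encodes a secreted protein with EF hands.

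The promoters of these genes are shown because Creb3l4 was the gene called in both tissues and Cgref1 was called in colon, with both KO arrays below both HET arrays in stomach as well. Each run is the 250 bases before a RefSeq transcription start (GRCm38.p6), written 5′ to 3′ on the strand of the gene, with GGAT or its reverse complement ATCC, a core recognised by Spdef, in capitals. Creb3l4 has 3 starts in the RefSeq table and Cgref1 has overlapping ones, of which 1 is shown.

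Creb3l4, start 1 (chr3:90243513-90243762, minus strand): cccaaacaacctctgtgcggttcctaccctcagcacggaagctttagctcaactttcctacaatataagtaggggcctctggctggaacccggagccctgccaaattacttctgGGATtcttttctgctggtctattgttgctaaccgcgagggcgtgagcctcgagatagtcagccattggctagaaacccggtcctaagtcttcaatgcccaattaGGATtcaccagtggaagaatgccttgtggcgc

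Creb3l4, start 2 (chr3:90243144-90243393, minus strand): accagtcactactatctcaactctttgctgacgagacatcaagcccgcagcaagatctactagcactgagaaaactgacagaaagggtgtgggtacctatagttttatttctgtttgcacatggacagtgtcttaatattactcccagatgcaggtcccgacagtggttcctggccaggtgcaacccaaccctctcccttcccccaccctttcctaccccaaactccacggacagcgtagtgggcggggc

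Creb3l4, start 3 (chr3:90242551-90242800, minus strand): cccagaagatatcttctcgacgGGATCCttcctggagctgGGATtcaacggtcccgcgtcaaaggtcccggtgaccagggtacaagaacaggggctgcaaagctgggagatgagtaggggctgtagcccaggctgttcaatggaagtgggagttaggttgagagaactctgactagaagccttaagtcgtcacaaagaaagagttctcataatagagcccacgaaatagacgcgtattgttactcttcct

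Cgref1 (chr5:30945428-30945677, minus strand): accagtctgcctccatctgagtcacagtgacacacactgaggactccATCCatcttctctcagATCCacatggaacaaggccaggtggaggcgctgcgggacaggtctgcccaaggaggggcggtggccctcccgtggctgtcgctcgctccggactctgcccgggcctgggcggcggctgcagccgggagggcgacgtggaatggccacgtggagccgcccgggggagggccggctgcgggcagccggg

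GGAT was found 2, 0 and 3 times on either strand in the Creb3l4 windows, where overlapping matches on both strands count separately, and 2 times in the Cgref1 window. It is a common word, present in 74.1% of the 32851 windows of this length in the RefSeq table. The longer ETS words CCGGAT (4.94% of windows) and CCGGAA (12.03%) and the cyclic AMP response word TGACGT (6.47%) were in none of these windows. CCACG, part of the ER stress element, occurred 4 times in the Cgref1 window shown, 1 time in the overlapping Cgref1 window, and 0, 1 and 1 times in the Creb3l4 windows, against a share of 28.3% of windows with at least 1 match. Of the shared losses and Cgref1, 9 genes were looked up and 6 had an entry, and the matches are a description of the letters only.

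Stomach arrays held gastric genes and colon arrays held colonic ones. The mean level of the 10 parietal cell markers on the array was 11.45 to 11.64 in stomach and 7.29 to 7.64 in colon, and that of the 22 absorptive colonocyte markers was 6.82 to 7.10 in stomach and 11.81 to 12.19 in colon. Colon KO 2 stood apart, with a mean correlation of 0.952 across genes with the other colon arrays against 0.968 to 0.973 for those arrays and 0.978 to 0.984 within stomach. Xist, which is transcribed from the inactive X chromosome of female cells, was at 12.61 to 12.81 on 6 of the arrays but at 7.49 on stomach KO 2 and at 5.68 on colon KO 2, while the Y-linked genes Kdm5d, Eif2s3y and Uty were at 5.99 or less on every array. Both stomach KO arrays, and no other of the 8, carry a different processing note (RMA in place of MAS5), so in stomach, and thereby in the interaction, that note and genotype cannot be told apart. The deposited values of those arrays are linear like the rest. Results that rest on the arrays with low Xist are given below with and without them.

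No gene passed the test of the interaction itself in limma at an adjusted p of 0.05, that is 0% of the genes tested in either direction, and 231 genes (3.23%) had an unadjusted p under 0.05 where 358 would be expected by chance. The same fit called 1 gene lower in KO stomach (0.014%), 9 genes lower in KO colon (0.126%), and 6 genes lower over the mean of both tissues (0.0839%), with none higher in any of these comparisons. At an unadjusted p under 0.05 there were 172 genes in stomach (2.4%), 505 in colon (7.06%) and 422 for the mean (5.9%). Across all genes tested the median difference was 0.02 in stomach and 0.02 in colon, and the standard deviation of the differences was 0.23 in stomach and 0.30 in colon. The lack of calls does not show that the tissues responded alike. The counts moved with single arrays, and each of these fits leaves 1 array in a group. Creb3l4, the gene called in stomach, could not be tested without any 1 of the HET arrays, so the counts without them leave it out. Stomach had 0 calls without stomach HET 1 or either colon HET array, 4 without stomach HET 2 and 3 without stomach KO 1. Colon had 441 without colon KO 1, 63 without colon KO 2, 4 without either stomach HET array, 3 without either stomach KO array, 2 without colon HET 2 and 0 without colon HET 1. The mean of both tissues had 241 without colon KO 1, 51 without colon KO 2, 2 without stomach HET 2 or stomach KO 1, 1 without stomach KO 2 and 0 without stomach HET 1, colon HET 1 or colon HET 2.

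**Figure D1:**
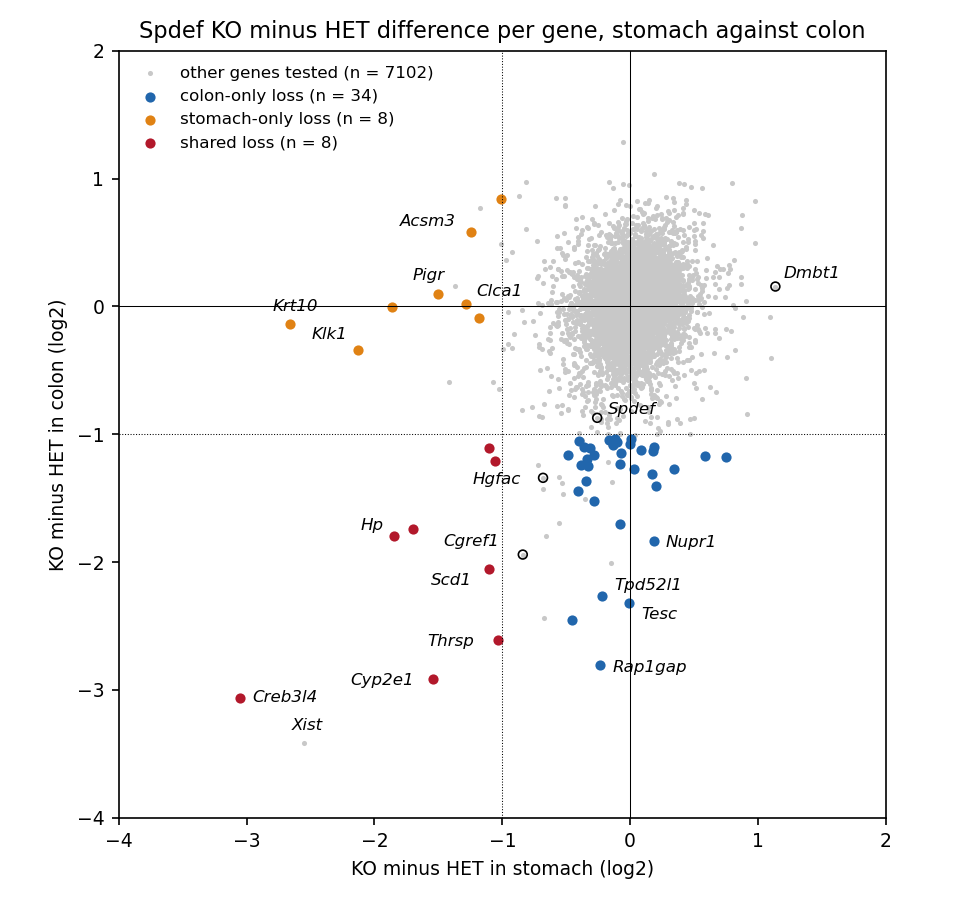
KO minus HET difference in stomach (horizontal axis, log2) against that in colon (vertical axis, log2) for the 7152 genes tested, 1 point per gene, with the loss classes in colour, 5 genes outside the classes (Cgref1, Hgfac, Spdef, Dmbt1 and Xist) also named, and dotted lines at -1. Creb3l4 lies at -3.05 and -3.06 as measured, Rap1gap at -0.24 and -2.81, and Klk1 at -2.13 and -0.34.

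Creb3l4, on chromosome 3, fell in both tissues, from clear expression in HET to below the expression level in KO. Stomach levels were 8.55 in both HET samples against 5.18 and 5.82 in KO. Colon levels were 9.31 and 9.03 against 6.08 and 6.15. The genotypes did not overlap in either tissue. The difference was -3.05 in stomach (SE 0.24, limma adjusted p = 0.00541) and -3.06 in colon (SE 0.24, adjusted p = 0.00294), which is at least 4.08-fold and 6.27-fold lower when the KO mean is raised to the expression level. As measured the interaction was 0.01 (SE 0.34, 95% confidence interval -0.78 to 0.79), but with KO below the expression level in both tissues the size of each loss is only bounded, and the value does not show that the losses were equal. Without stomach KO 2 and colon KO 2 the differences were -3.37 and -3.08. With each tissue fitted alone Creb3l4 passed in stomach but not in colon (limma adjusted p = 0.101), so its colon call used the spread of the stomach arrays as well. Without any 1 of the HET arrays Creb3l4 could not be tested, since only 1 array of that tissue then reached the expression level. The sign of the interaction changed with the offset (-0.23 with an offset of 1) and with single arrays, from -0.32 without stomach KO 2 to 0.32 without stomach KO 1.

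Cgref1, on chromosome 5, fell in colon and differed less in stomach. Its levels in colon were 11.16 and 11.19 in HET against 9.05 and 9.41 in KO, a decrease of 1.94 (SE 0.17, limma adjusted p = 0.00429) or 3.84-fold. In stomach they were 9.39 and 9.14 in HET against 8.37 and 8.48 in KO, a difference of -0.84 (SE 0.17) that did not pass. The arrays of the genotypes did not overlap in either tissue, and the rule left Cgref1 unsorted because its stomach difference lay between -1 and -0.5. The interaction was 1.10 (95% confidence interval 0.55 to 1.65) with an unadjusted p of 0.00157, which did not pass over all genes in limma (adjusted p above 0.99). A second probe set gave -1.19 in stomach and -1.79 in colon, a smaller gap between the tissues. With every probe set tested, and with a loss limit of -0.8, Cgref1 was sorted as a shared loss. The colon call was lost without either colon HET array, and with each tissue fitted alone (limma adjusted p = 0.313).

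Hgfac, which encodes a protease that activates hepatocyte growth factor, had a profile like that of Cgref1. It lay at 11.24 and 11.34 in HET colon against 9.72 and 10.18 in KO colon, and fell by 1.34 (SE 0.18, limma adjusted p = 0.0355). In stomach it lay at 7.66 and 7.67 against 6.99 and 6.98, a difference of -0.68 that did not pass. Its colon call was kept in 9 of 20 alternative settings, fewer than the 17 of 20 of Cgref1. Spdef itself, on chromosome 17, was read by 1 probe set that cannot be placed against the altered stretch of the gene here and so does not check the labels. Its levels were 9.08 and 8.96 in HET against 8.87 and 8.64 in KO stomach (-0.26, SE 0.19). In colon they were 10.28 and 9.82 against 9.09 and 9.27 (-0.87, SE 0.19). The arrays did not overlap in either tissue, and neither difference nor the interaction of 0.61 passed.

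**Figure D2:**
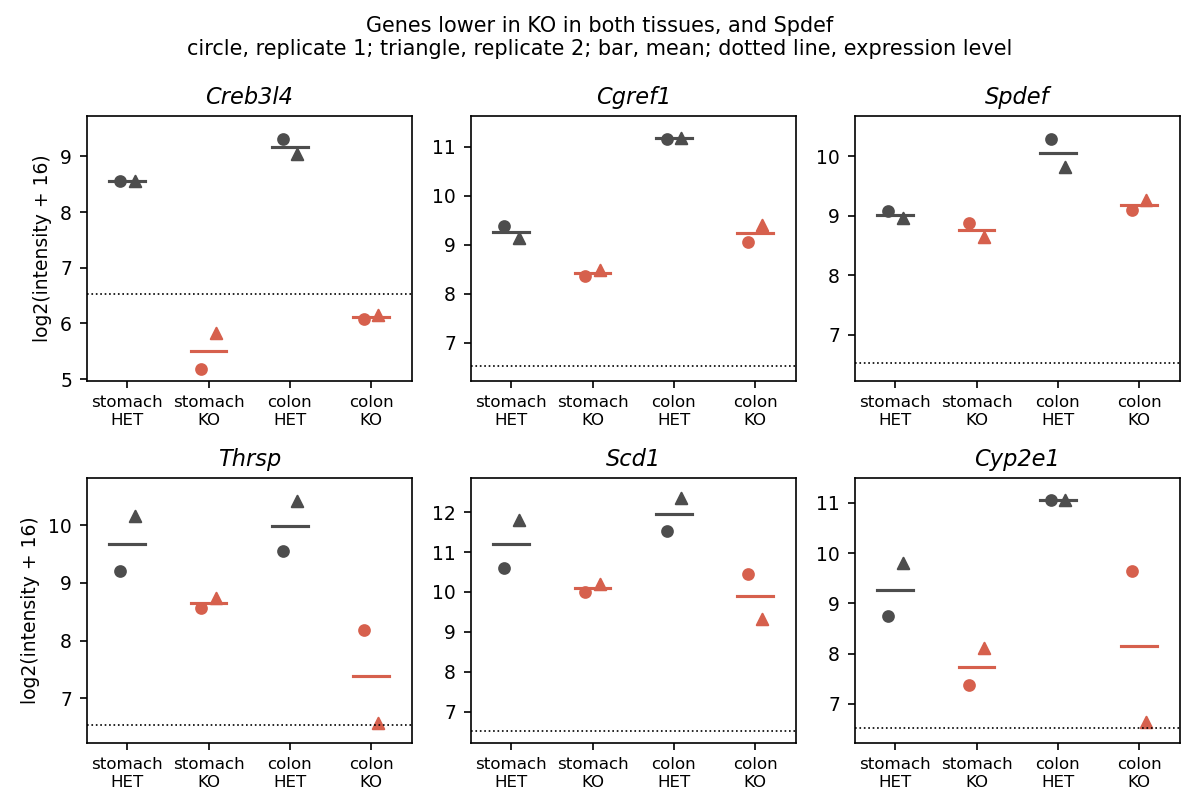
Levels, as log2(intensity + 16) on the vertical axes, of 5 genes with negative KO minus HET differences in both tissues and of Spdef, by tissue and genotype (HET grey, KO red). Circles are replicate 1, triangles replicate 2, bars group means and the dotted line is the expression level; Creb3l4 crosses that line in both tissues, and in Cyp2e1 and Thrsp colon KO 2 is far below colon KO 1.

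Besides Creb3l4 the shared losses were Cyp2e1, a cytochrome that oxidises small molecules such as ethanol; Thrsp, which promotes fatty acid synthesis; Scd1, a fatty acid desaturase; Cox8b, a subunit of cytochrome c oxidase; Hp, the haemoglobin-binding plasma protein haptoglobin; Sult1a1, a sulphotransferase; and Ifi27l2a, an interferon-induced gene. None of these 7 passed in either tissue or over the mean of the tissues. Cyp2e1 lay at 8.76 and 9.79 in HET against 7.37 and 8.10 in KO stomach (-1.54), and at 11.05 and 11.07 in HET against 9.64 and 6.65 in KO colon (-2.92). Its genotypes did not overlap, and its KO colon arrays were 3 log2 units apart. Thrsp lay at 9.20 and 10.16 against 8.57 and 8.73 in stomach (-1.03), and at 9.55 and 10.42 against 8.19 and 6.57 in colon (-2.61). A second Thrsp probe set gave -1.60 and -2.06. Scd1 lay at 10.59 and 11.80 against 10.002 and 10.19 in stomach (-1.10), and at 11.53 and 12.35 against 10.46 and 9.32 in colon (-2.05). Its second probe set gave -0.95 in stomach, just outside the limit. The other 4 ranged from -1.06 (Ifi27l2a) to -1.85 (Hp) in stomach and from -1.11 (Sult1a1) to -1.79 (Hp) in colon. Hp and Cox8b were below the expression level in KO, and with the KO mean raised to it their differences were -0.76 and -0.58 in stomach and -1.15 and -0.23 in colon, and of these only that of Hp in colon is past -1. The intervals of the interactions of all 7 included 0.

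Colon KO 2 carried much of the shared class. Measured against the HET mean, colon KO 1 was past -1 for 4 of the 8 shared losses with a median of -1.18, and colon KO 2 for all 8 with a median of -2.76. In stomach KO 1 and KO 2 were each past -1 for 6 of the 8, with medians of -1.33 and -1.36. Without colon KO 2 the class had 4 genes, Creb3l4, Cyp2e1, Scd1 and Thrsp, and the same 4 remained without stomach KO 2 as well. It had 3 genes without stomach HET 2 (Cyp2e1, Ifi27l2a and Sult1a1), 4 without stomach HET 1 and 5 without colon HET 1, with Creb3l4 not tested in these settings. The mean of the 12 adipose markers on the array moved with these genes. It was 6.81 in colon KO 2 and 8.20 to 8.82 in the other colon arrays, and 8.29 and 8.60 in HET against 7.96 and 8.19 in KO stomach, where the brown fat marker Ucp1 was above the expression level in both HET arrays and in neither KO array. The mean of 16 liver plasma protein markers was 8.33 in stomach HET 2 and 5.88 to 6.79 in the other stomach arrays. The part of either in the shared losses was not tested.

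Rap1gap, Tesc, Tpd52l1, Nupr1, Slc41a2 and Slc16a7 fell in colon and were sorted as colon-only. Rap1gap, on chromosome 4, switches off the small GTPase Rap1. In colon it lay at 10.19 and 9.96 in HET against 6.92 and 7.61 in KO, and it fell by 2.81 (SE 0.23, limma adjusted p = 0.00294) or 7.004-fold. In stomach, where it was also well expressed, it lay at 9.003 and 9.15 against 8.87 and 8.81, a difference of -0.24 (SE 0.23). Its genotypes were far apart in colon and close, without overlap, in stomach. The interaction was 2.57 (SE 0.32; 95% confidence interval 1.84 to 3.30), the smallest p of all genes (unadjusted p = 2.67e-05, limma adjusted p = 0.151).

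Tesc encodes tescalcin, a calcium-binding regulator of a sodium-proton exchanger. It lay at 8.91 and 8.49 in HET against 6.65 and 6.11 in KO colon. With a KO mean below the expression level, it fell by at least 2.17 (measured difference -2.32, SE 0.21, limma adjusted p = 0.00471). Stomach levels were higher and overlapped between genotypes, at 11.59 and 11.69 in HET against 11.70 and 11.56 in KO. As measured the interaction was 2.30 (SE 0.30; 95% confidence interval 1.61 to 2.996; adjusted p = 0.151), and a second probe set gave -0.09 in stomach and -2.02 in colon. Tpd52l1, of a family of proteins linked to vesicle traffic, lay at 7.86 and 8.40 against 6.05 and 5.69 in colon, below the expression level in both KO arrays, and fell by at least 1.61 (adjusted p = 0.00805). In stomach it lay at 8.44 and 8.61 against 8.38 and 8.23, a difference of -0.22. Nupr1, a stress-induced chromatin protein, was bright in both tissues. It lay at 13.41 and 13.26 against 11.05 and 11.96 in colon, fell by 1.83 (SE 0.24, adjusted p = 0.0355) and was slightly higher in both KO arrays of stomach, at 12.98 and 12.98 against 13.20 and 13.12. Its second probe set gave -0.10 in stomach and -1.45 in colon.

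The solute carriers completed the called genes. Slc41a2, a magnesium transporter, lay at 8.17 and 8.26 against 6.23 and 6.79 in colon and fell by at least 1.69 (SE 0.22, limma adjusted p = 0.0355), with stomach at 8.70 and 9.01 against 8.67 and 8.89. Slc16a7, a monocarboxylate transporter, lay at 8.04 and 8.18 against 6.37 and 6.80 in colon and fell by 1.52 (SE 0.20, adjusted p = 0.0355), with stomach at 10.96 and 11.12 against 10.96 and 10.56. In colon the genotypes were apart for both genes, and in stomach they overlapped for Slc41a2 and nearly met for Slc16a7. All 6 genes kept a negative colon difference in each alternative in which they were tested. All 9 genes called in colon were also called without both KO arrays with low Xist (where 0.799% of all genes were lower). The same held without colon KO 2 and without colon KO 1. Each of these settings leaves 1 KO array in colon, so the spread between the colon KO arrays drops out of the fit. More genes were then called lower in colon than with all arrays, so keeping these calls does not count as support for them. The colon calls also depended on the HET arrays, and fewer of the 9 genes were called without either colon HET array. Creb3l4 and Tpd52l1 could not be tested in those settings, since too few colon arrays then reached the expression level. Without any 1 stomach array Nupr1, Slc41a2, Slc16a7 and Hgfac were not called in colon. Without either stomach KO array Tesc and Tpd52l1 were not called there either.

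**Figure D3:**
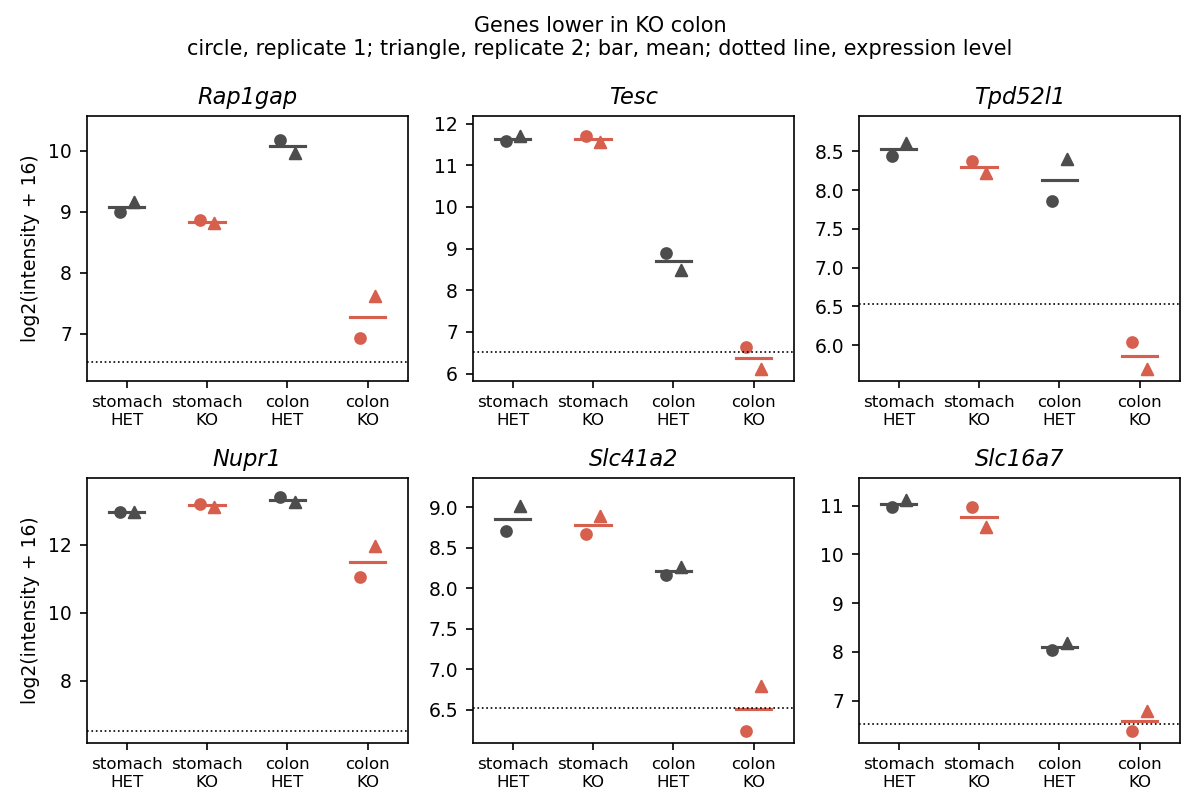
Levels, as log2(intensity + 16) on the vertical axes, of the 6 colon-only losses past the threshold in colon, by tissue and genotype (HET grey, KO red; circles replicate 1, triangles replicate 2, bars means, dotted line the expression level). In each panel the colon arrays of the genotypes are apart and the stomach arrays lie close together, as for Tesc at 11.56 to 11.70 in stomach.

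Leaving out single colon KO arrays changed the calls of the interaction, whose values below are as measured. Without colon KO 2, where colon KO 1 is the only KO array of colon and is assumed to vary like the other groups, limma called 8 genes above 0 (0.113%) and 1 below (0.0141%). Those above 0 were Rap1gap (2.91), Nupr1 (2.48), Tesc (2.03), Slc41a2 (1.89), Fxyd3 (1.71), a regulator of the sodium pump, Bace2, Clps and Pdia6, and the gene below 0 was Ramp2. Bace2, Clps, Pdia6 and Ramp2 were named after their values were seen. In stomach Clps lay at 14.24 to 14.28, near the top of the scale, and whether a change could be read there was not tested. Against the HET mean Pdia6 was at -1.41 in colon KO 1 but at 0.35 in colon KO 2. Without colon KO 1 there were 102 calls, 81 above 0 (1.15%) and 21 below (0.297%), among them Rap1gap (2.23), Nupr1 (1.57), Tesc (2.57), Tpd52l1 (2.21) and Slc41a2 (1.34). Without both KO arrays with low Xist there were 4 (0.0571%), namely Clps, Fxyd3, Nupr1 (2.53) and Rap1gap (2.94). Without stomach KO 1 the single call was Klk1 (-2.81; 0.0141%). Rap1gap, Nupr1 and Fxyd3 therefore passed only in the 3 settings that left a single colon KO array. The values there ran from 2.23 to 2.94 for Rap1gap and from 1.57 to 2.53 for Nupr1. Cgref1 passed in no alternative.

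With all arrays the remaining colon-only losses did not pass the test, and as a class they leaned on colon KO 2. Over the 34 members, colon KO 1 was past -1 in 14 with a median of -0.73, colon KO 2 in 31 with a median of -1.76, and both in 11. Without colon KO 2 the class had 50 genes, of which 14 were among the 34, and without colon KO 1 it had 156, of which 31 were. Without colon HET 1 it had 52, of which 28 were. Members with the smallest interaction p besides the called genes were Fxyd3, at 11.36 and 11.20 in HET against 9.76 and 10.55 in KO colon (-1.13) and 13.12 to 13.50 in stomach, and Rab3b, a GTPase of secretory vesicles, at 7.73 and 8.47 against 6.48 and 7.08 in colon (-1.31). For both genes colon KO 1 was the lower KO array.

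Among the 34, which are 0.475% of all genes tested, were 4 of the 8 tested adipose genes and 3 of the 8 tested genes of enteric neurons and glia. The adipose genes Adipoq (-2.43) and Car3 (-1.69) were also lost in colon. They were left unsorted because their stomach differences were -0.67 and -0.56. In stomach 7 of the 8 adipose genes had negative differences, against 46.0% of all genes tested, with Fabp4 at -0.41. Retn, the fat hormone resistin, lay at 8.34 and 8.43 in HET against 6.75 and 5.12 in KO colon (-2.45, or -1.86 with the KO mean raised to the expression level). Fabp4, a fatty acid binding protein of adipocytes, lay at 12.59 and 13.16 against 12.33 and 10.54. Lpl, the lipoprotein lipase, lay at 11.50 and 11.54 against 11.25 and 8.99. In Fabp4 and Lpl colon KO 1 was close to HET and colon KO 2 alone was low. The neuronal genes Snap25, Stmn2 and Uchl1 showed the same order, with Uchl1 at 8.42 and 8.75 against 8.004 and 6.82, and so did the hormone gene Sst, at 10.32 and 10.10 against 9.96 and 8.28. Of the 12 adipose markers on the array, 8 reached the expression level in colon HET 1, HET 2 and KO 1 and 5 in KO 2. The 17 markers of enteric neurons and glia had a mean of 6.87 in colon KO 2 and 7.34 to 7.84 in the other colon arrays, and 23 exocrine pancreas markers a mean of 8.22 against 6.24 to 6.89. The part of these markers in the colon-only losses was not tested.

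Goblet cell and ER genes were lower in colon KO 1 than in colon KO 2. Over all arrays, 1 of the 19 tested goblet genes, Creb3l4, was called in colon. The median difference of the list was -0.39 against 0.02 for all genes, and 17 of 19 were negative against 46.1% of all genes. Without colon KO 2, 8 of 19 were called lower in colon, where 0.835% of all genes were called lower and 0.0566% higher, all 19 were negative and the median was -0.86. Without colon KO 1 only Creb3l4 was called, where 3.89% of all genes were lower, 11 of 19 were negative and the median was -0.06. The 8 were Creb3l4, its relative Creb3l1, the goblet ER stress sensor Ern2, the transcription factor Foxa3, the mucin glycosyltransferase Galnt3, Capn9, Slc12a8 and Sytl2, several of them named after their values were seen. Ern2 lay at 9.66 and 9.46 in HET against 8.29 and 9.21 in KO colon, and at 9.14 and 9.28 against 8.50 and 8.23 in stomach. Foxa3 lay at 9.61 and 9.56 against 8.48 and 9.31 in colon, and at 10.32 and 10.38 against 10.41 and 10.62 in stomach. The genotypes of Ern2 were apart in the same direction in both tissues, whereas those of Foxa3 were apart in opposite directions.

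The 62 tested genes of the ER secretory machinery behaved likewise. Their median colon difference was -0.10 with 40 negative over all arrays, where 46.1% of all genes were negative. It was -0.38 with 55 negative without colon KO 2, and 0.24 with 11 negative without colon KO 1. Without colon KO 2, 8 were called lower in colon (Creb3l4, Dnajc10, Ern2, Herpud1, Hspa5, Kdelr3, Manf and Pdia6), where 0.835% of all genes were, and without colon KO 1 only Creb3l4 was, where 3.89% of all genes were. Hspa5, the main ER chaperone, lay at 12.37 and 12.57 in HET against 11.66 and 13.00 in KO colon, so the KO arrays were on either side of HET. In stomach the median of the list was -0.04. The median interaction was 0.01 for the ER list and 0.12 for the goblet list, against 0.00 for all genes, and with 1 array left out it ran from -0.23 to 0.37 and from -0.19 to 0.60, so its sign turned in both lists.

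The 8 stomach-only losses included mucosal products that were far brighter in colon. None passed in stomach or in the interaction with all arrays. Without stomach HET 2 Hopx, Krt10 and Pigr were called lower in stomach (0.0422% of all genes), without stomach KO 1 Klk1 was (0.0424%), and without both KO arrays with low Xist Klk1 was (0.0285%). Klk1, a tissue kallikrein, lay at 9.65 and 9.52 in HET against 8.48 and 6.42 in KO stomach (-2.13, SE 0.51), and at 14.21 and 14.25 against 13.87 and 13.91 in colon. A second probe set gave -1.68 and -0.29. Clca1, a secreted protein of goblet cell mucus, lay at 9.65 and 10.01 against 8.96 and 8.13 in stomach (-1.28, SE 0.25), and at 13.71 and 13.85 against 13.66 and 13.94 in colon. A second probe set gave -0.40 in stomach, where its means in HET (5.62) and KO (5.22) were both below the expression level. Pigr, which carries antibodies across epithelium, lay at 8.79 and 7.61 against 6.52 and 6.86 in stomach (-1.51, SE 0.32), and at 13.70 and 13.52 against 13.70 and 13.71 in colon. A second probe set gave -1.01 and 0.09. In all 3 genes the stomach genotypes were apart, and in colon those of Klk1 were apart and those of Clca1 and Pigr overlapped. Klk1 was the brightest of the 7152 genes in HET colon, 14 genes were brighter than Clca1 and 36 than Pigr, and the highest level of any gene in colon was 14.28. Whether a change in colon could be read so near the top of the scale was not tested.

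Acsm3, a mitochondrial enzyme that activates medium-chain fatty acids, had the smallest interaction p of the class, at -1.83 (SE 0.48; unadjusted p = 0.00455). It lay at 7.94 and 8.07 against 7.22 and 6.30 in stomach, and at 10.27 and 10.71 against 10.68 and 11.47 in colon. Krt10 and Lce1d, of cornified squamous epithelium, and Ly6d and Hopx rested on stomach HET 1. Krt10 lay at 11.51 in stomach HET 1, 7.94 in HET 2 and 6.76 and 7.36 in KO. Lce1d lay at 9.85, 6.77, 6.53 and 6.36 in the same order, and Hopx at 9.17, 7.15, 6.82 and 7.12. In each of them stomach HET 1 was high and HET 2 was close to KO. Of the 29 squamous markers on the array, 21 reached the expression level in stomach HET 1, 9 in HET 2, and 6 and 5 in the KO arrays, with means of 8.74, 6.61, 5.89 and 5.93. Their part in these losses was not tested. Without stomach HET 1 the class still had 8 genes, but only Acsm3, Clca1 and Klk1 were among the first 8. It had 26 genes without stomach HET 2, 28 without stomach KO 1 and 13 without stomach KO 2.

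**Figure D4:**
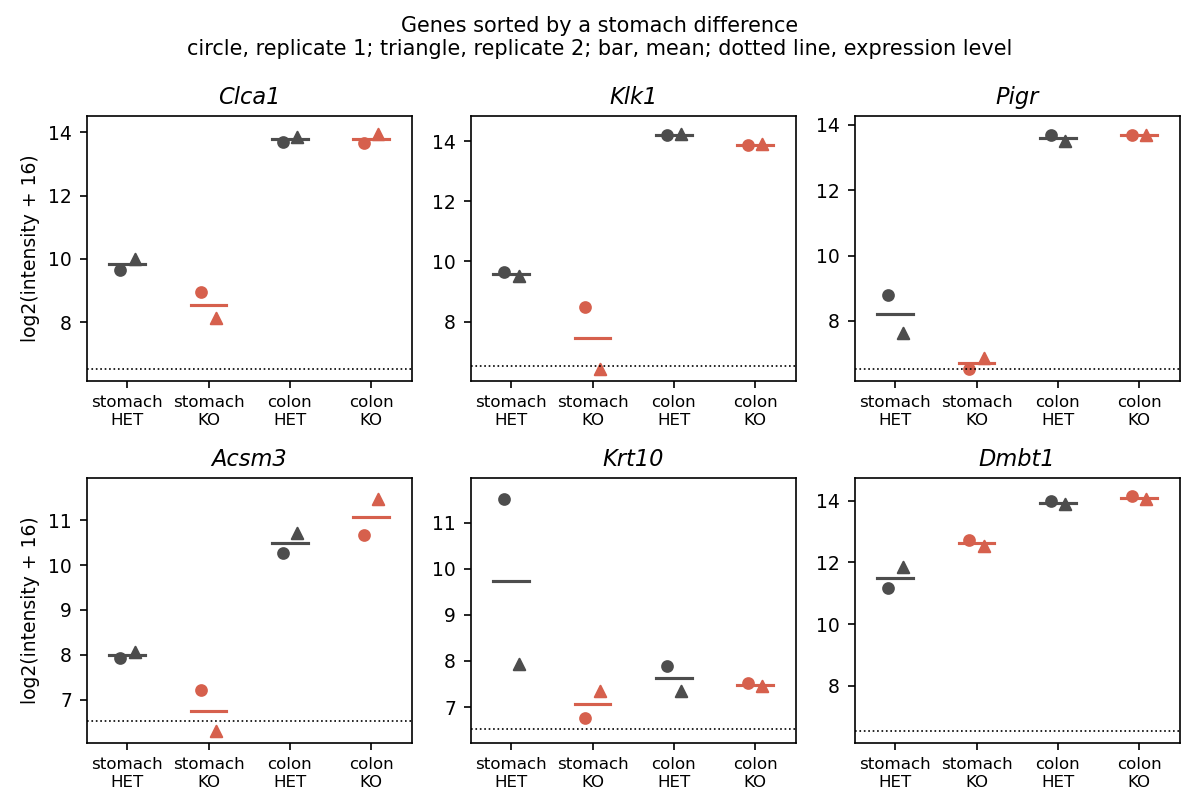
Levels, as log2(intensity + 16) on the vertical axes, of 5 stomach-only losses and of Dmbt1, the stomach-only gain with the smallest p, by tissue and genotype (HET grey, KO red; circles replicate 1, triangles replicate 2, bars means, dotted line the expression level). Clca1, Klk1 and Pigr lie above 13.50 in every colon array, and the high mean of Krt10 in HET stomach comes from replicate 1.

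No gene passed as higher in KO, and the rule sorted 5 as gains. Dmbt1, a secreted mucosal scavenger receptor, lay at 11.16 and 11.84 in HET against 12.73 and 12.54 in KO stomach (1.14, SE 0.19, limma adjusted p = 0.716), and at 13.99 and 13.90 against 14.15 and 14.05 in colon. The genotypes were apart in both tissues. In colon Dmbt1 was close to the highest level of any gene (14.28), and whether a larger gain could be read there was not tested. Plekhh3 and Bmp1 were the other stomach-only gains, at 1.10 and 1.09 as measured, or 0.61 and 0.60 with the HET mean raised to the expression level. In colon Ctse, the gastric protease cathepsin E, lay at 7.60 and 7.75 against 7.85 and 10.07, a mean gain of 1.29 that comes from colon KO 2, and Mxd3 lay at 5.83 and 5.59 against 6.73 and 6.75, a difference of 1.03 as measured or 0.22 with the HET mean raised to the expression level. None of the 5 passed with all arrays. Dmbt1 was called higher in stomach without stomach HET 2 (0.0141% of all genes), and Ctse in colon and in the interaction without colon KO 1 (2.35% were higher in colon). Plekhh3, Bmp1 and Mxd3 were named after their values were seen.

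Further features were counted by class. Of these the HET levels are not independent of the sorting, since the filter and the differences used the same HET arrays. HET levels were higher in colon than in stomach for 7 of 8 shared, 5 of 8 stomach-only and 19 of 34 colon-only losses, against 45.4% of all genes tested. Chromosome 7 held 4 of the 8 shared losses (Cyp2e1, Thrsp, Cox8b and Sult1a1), 2 of the 8 stomach-only and 4 of the 34 colon-only losses, against 7.16% of all genes tested. No test was made of these counts. Both KO arrays lay below both HET arrays in both tissues for 182 genes (2.54%) and above in both for 336 (4.7%). Across the genes tested, stomach and colon differences had a correlation of 0.23, a description over genes that share arrays and normalization.

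Gene lists of cell types and processes were compared by their medians beside that of all genes, which was 0.00 for the interaction. Large medians were those of the 8 adipose genes (stomach -0.40, colon -1.42, interaction 1.08), the 13 enteroendocrine genes (-0.11, -0.87, 0.76) and the 8 genes of enteric neurons and glia (0.20, -0.91, 0.74). The 28 cell cycle genes had medians of 0.10 in stomach and 0.61 in colon. With 1 array left out the median interaction ran from 0.08 to 2.13 for adipose, from 0.11 to 1.47 for enteroendocrine, and from 0.36 to 1.35 for enteric neuron and glia genes, and the median colon difference of the adipose genes from -2.43 to -0.46. No gene of these 4 lists passed in the interaction or in either tissue. Without colon KO 1, 7 adipose, 10 enteroendocrine and 5 enteric neuron and glia genes were called lower in colon, where 3.89% of all genes were, and 9 cell cycle genes higher, where 2.35% were. Without colon KO 2, Retn was the only gene of these lists called in colon. For the 19 tested genes that build mucin O-glycans the medians were -0.03 in stomach and -0.34 in colon. For the 17 that supply nucleotide sugars they were -0.09 and -0.23, and no member of either list was called. With 1 colon KO array left out, the members called lower in colon differed with the array. All 14 smooth muscle genes tested had negative differences in stomach (median -0.22) and 13 in colon (-0.29), with none called. Of all genes tested 46.0% were negative in stomach and 46.1% in colon.

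**Figure D5:**
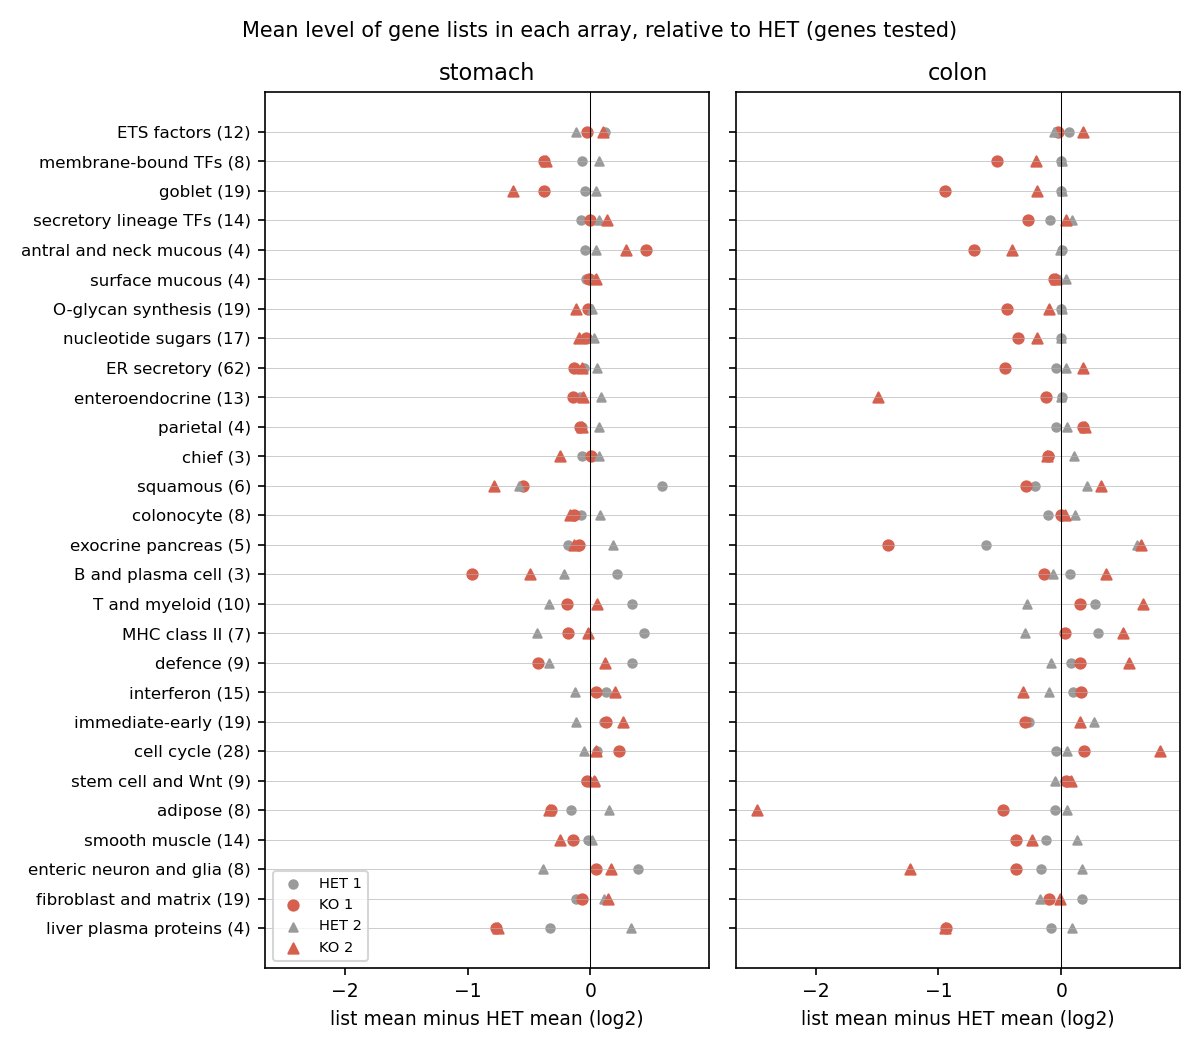
Mean level of each gene list in each array relative to the mean of the HET arrays of the tissue (horizontal axis, log2), with stomach on the left and colon on the right, for lists with at least 3 genes tested (number in brackets). In colon the adipose list lies at -0.47 in KO 1 and -2.48 in KO 2, the goblet list at -0.95 and -0.20, and the ER secretory list at -0.46 and 0.17, so the KO arrays part by list.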

How the data were processed

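Expression was measured on Affymetrix arrays, and the deposited values are linear intensities, 1 per probe set, which the authors scaled to a similar trimmed mean on every array. The submitters' processing notes name MAS5 or, for both stomach KO arrays, RMA, with no version. Of 22716 probe sets, 90 controls were dropped, 18003 had 1 gene in the platform annotation, 287 several and 4336 none, and the brightest probe set stood for each of 11807 genes. Values were log2(intensity + 16), quantile normalized over 8 arrays, and fitted with limma 3.58.1 (R 4.3.3, 1 mean per group, intensity trend), with Benjamini-Hochberg adjustment over 7152 genes and a threshold of 0.05. The filter, classes and bounds were also computed in R. Values were prepared and promoter matches counted with Python 3.11.15, and figures drawn with matplotlib 3.10.9. The fit was tested on simulated data. The number of arrays, 2 per group, limits the precision.

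Members, gene lists and limits were chosen with earlier results of these data known. Genes named were Spdef, Creb3l4, Cgref1, all shared losses, the called genes (at most 12), the 8 stomach-only and 8 colon-only losses of smallest interaction p, and up to 3 genes per list with the largest interaction; others are named after their values were seen. Alternatives changed the normalization, offset, filter, probe set choice, trend, limits, replicate block and arrays used, and the setting without both KO arrays with low Xist was added after seeing the data. Promoter sequences are from RefSeq (GRCm38.p6).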

Additional observations from a re-analysis of the deposited data

Results flagged for a closer look

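Many of the genes named were picked by the size or p of their interaction, which favours opposite directions, so their number is a description only. In 8 of the genes named, both KO arrays lay on one side of both HET arrays in stomach and on the opposite side in colon. None passed the limma test of the difference between tissues (adjusted p above 0.46 for Nupr1 and above 0.99 for the others), and over all genes tested 143 (2%) were higher in KO stomach and lower in KO colon in this way and 145 (2.03%) the reverse.

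The interaction was positive, with the lower KO values in colon, for Nupr1 (2.01), the enteric neuron gene Uchl1 (1.76), the cilium gene Ahi1 (1.34), Foxa3 (0.85) and the glycosyltransferase Galnt10 (0.57). It was negative, with the lower KO values in stomach, for the brush border gene Vil1 (-0.59) and the cell cycle kinases Cdk1 (-0.71) and Ttk (-0.76). For Ahi1 a second probe set gave 0.78 in stomach and -1.28 in colon, beside 0.67 and -0.67 for the first. The means of that second probe set were 4.09 in HET and 4.87 in KO stomach, and 5.42 in HET and 4.15 in KO colon. All these means were below the expression level, so they add no independent reading of the opposite directions.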

How the results depend on the processing

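The interaction had 0 calls in limma under each other normalization, offset, filter, probe set choice, trend setting and with all 12 arrays, and 0 to 102 when 1 array was left out. The number of calls then ranged from 0 to 4 in stomach, 0 to 441 in colon and 0 to 241 for the mean of the tissues, and the classes from 3 to 9 (shared), 6 to 28 (stomach-only) and 31 to 156 (colon-only). Without both KO arrays with low Xist there were 4 interaction, 2 stomach, 58 colon and 24 mean calls, and 4 shared, 13 stomach-only and 53 colon-only losses. Colon had 5 calls with no filter, 5 with no trend, 2 with all 12 arrays and 0 with each tissue fitted alone. The mean had 3 with an offset of 64, 3 with no filter, 3 with every probe set, 3 with no trend and 2 with all 12 arrays. Shared losses numbered 5 with an offset of 64, 13 with no filter and 4 with a limit of -1.5. Stomach-only losses numbered 15 and 5 with offsets of 1 and 64, 141 with no filter, 5 with a filter at the array median, 18 and 4 with limits of -0.8 and -1.5, and 4 with a limit of 0 in the other tissue. Colon-only losses numbered 22 with an offset of 64, 77 with no filter, 22 with a filter at the median, 70 and 7 with limits of -0.8 and -1.5, and 12 with a limit of 0 in the other tissue. The filter and the limits change the genes that can enter; the cause of the other shifts was not tested. The interaction of Creb3l4 was -0.23 with an offset of 1, -0.29 without both arrays with low Xist, and -0.32 to 0.32 with 1 array left out.

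With the replicate number as a block the interaction had 0 calls (237 genes at an unadjusted p under 0.05) and colon 6, without Nupr1, Hgfac and Slc16a7, and the mean 4, and with a block of equal genotype and number it had 0 (233). Same-numbered arrays deviated together with correlations of 0.04 (HET) and 0.12 (KO) between tissues, and of 0.02 in stomach and 0.27 in colon between genotypes, which did not show every pair deviating together, and the labels tie no numbers to animals, so the main values use no pairing.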
